A study of Mus musculus with 6 samples.

Results

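The receptors for the constant part of IgG were followed in mouse bone marrow-derived macrophages (BMMs) on their way to osteoclasts. They are 5 genes, Fcgr1, Fcgr3, Fcgr4, Fcgr2b and Fcgrt, taken by symbol from a table of 24940 genes. All 5 lay above the limit on low values, which left 11595 genes tested. BMMs were grown from the marrow of C57BL/6 mice aged 6 to 8 weeks per the labels. The study's methods instead name male ICR mice of a narrower age range, and which strain gave the RNA could not be settled. Each of the 3 groups had 2 libraries and M-CSF at 30 ng/mL for 3 days: -R had nothing more, +R also had RANKL at 100 ng/mL, and R+LE had RANKL and LE, a methanol extract of the leaves of Abeliophyllum distichum, at 10 μg/mL. No group received LE without RANKL. The values are RPKM, reads scaled to the length of the transcript and to the depth of the library, so they can be compared between genes.

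Fc gamma receptors let macrophages bind antibody-coated particles and immune complexes. Fcgr1 encodes the high-affinity receptor CD64, Fcgr3 encodes CD16 and Fcgr4 encodes the mouse receptor CD16-2. All of these are activating: they have no signalling motif of their own and work through the common gamma chain, Fcer1g, which carries an ITAM that recruits the kinase Syk. Fcgr2b encodes CD32B, the inhibitory receptor, whose ITIM recruits the phosphatase SHIP1. Fcgrt encodes the heavy chain of the neonatal receptor FcRn, which pairs with β2-microglobulin and returns IgG from endosomes to the surface, and it takes no part in this balance. The same ITAM route, through the gamma chain and DAP12, costimulates osteoclast precursors, and immune complexes are known to act on these cells.

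Fcgr2b (chr1:170960559-170976071, minus strand), Fcgr4 (chr1:171018926-171029761, plus strand) and Fcgr3 (chr1:171051169-171059394, minus strand) lie together within 98.8 kb of mm10. Fcgr1 is at chr3:96282909-96293969 and Fcgrt at chr7:45092993-45103822, both on the minus strand. All 5 are protein-coding. In GENCODE M21, which uses the same build, the transcript linked to the deposited one had 6 exons for Fcgr1, 7 for Fcgr2b, 5 for Fcgr4 and 7 for Fcgrt. No transcript was linked to the deposited one of Fcgr3, so all its GENCODE transcripts were used. No exon base of the members was shared with another gene. The 250 bases before the start of the deposited transcript (RefSeq, GRCm38.p6, the build of mm10) are shown for the activating receptors, which fell together with RANKL, and for Fcgr2b, which did not pass the test. Capitals mark 2 motifs of factors that act in macrophages, searched on both strands: the PU.1 core GAGGAA or TTCCTC, and the interferon-response core (ISRE), which is GAAA, any 2 bases and GAAA again, or its complement.
Fcgr1, chr3:96293970-96294219, minus strand: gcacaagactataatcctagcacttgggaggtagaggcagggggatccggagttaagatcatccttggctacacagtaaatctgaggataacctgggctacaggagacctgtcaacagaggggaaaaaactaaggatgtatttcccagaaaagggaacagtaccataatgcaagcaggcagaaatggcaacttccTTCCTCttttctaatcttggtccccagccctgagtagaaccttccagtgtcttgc
Fcgr3, chr1:171059395-171059644, minus strand: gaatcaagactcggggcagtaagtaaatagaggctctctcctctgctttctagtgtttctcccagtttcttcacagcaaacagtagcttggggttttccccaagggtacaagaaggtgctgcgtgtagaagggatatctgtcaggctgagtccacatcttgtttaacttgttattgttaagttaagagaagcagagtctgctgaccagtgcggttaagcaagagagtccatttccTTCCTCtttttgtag
Fcgr4, chr1:171018676-171018925, plus strand: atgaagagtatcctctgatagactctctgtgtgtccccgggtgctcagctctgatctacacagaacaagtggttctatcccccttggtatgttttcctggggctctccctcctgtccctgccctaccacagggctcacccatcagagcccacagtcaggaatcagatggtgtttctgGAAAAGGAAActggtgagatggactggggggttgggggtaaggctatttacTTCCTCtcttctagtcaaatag
Fcgr2b, chr1:170976072-170976321, minus strand: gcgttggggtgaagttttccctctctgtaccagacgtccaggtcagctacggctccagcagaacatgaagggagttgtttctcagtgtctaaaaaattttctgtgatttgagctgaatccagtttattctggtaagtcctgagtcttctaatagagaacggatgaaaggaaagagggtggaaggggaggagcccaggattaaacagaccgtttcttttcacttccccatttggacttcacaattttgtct
The PU.1 core stood once in each activating receptor, as TTCCTC, from 55 to 50 bases before the start in Fcgr1, from 15 to 10 in Fcgr3 and from 22 to 17 in Fcgr4. Fcgr4 alone among the 5 held an ISRE core, GAAAAGGAAA, from 73 to 64 bases before its start. Neither motif was found in this window of Fcgr2b or Fcgrt. Of 32851 promoter windows of the same length, 23.3% held the PU.1 core and 2.98% an ISRE core, and no motif overlapped another in these sequences. These matches describe letters only, and binding was not measured.

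Depth was recovered from the steps between low values and ran from 29390212 to 34846375 mapped reads per library. The macrophage and osteoclast markers followed the labels. All 8 osteoclast markers rose with RANKL, against 23.9% of all genes tested. Their summed level went from 43.2 and 44.8 RPKM in -R to 2123 and 1866 in +R, then 379.98 and 329.2 in R+LE. Of 7 macrophage markers, 6 fell with RANKL, against 21.5% of all genes tested, and Itgam did not pass the test. The summed level of the 7 was 6664 and 7250 RPKM in -R, 3454 and 2690 in +R, then 4204 and 3762 in R+LE. Markers of other cells that carry Fc receptors were low. The 6 B cell markers summed to 2.81 and 2.26 RPKM in -R, 0.196 and 0.165 in +R, then 0.184 and 0.215 in R+LE. The 7 markers of T and NK cells summed to at most 0.305 RPKM, the 6 of mast cells and basophils to at most 0.091 and the 6 of dendritic cells to at most 2.62. The 8 neutrophil markers summed to 17.5 and 15.6 RPKM in -R and to at most 2.53 elsewhere, led by S100a8 and S100a9, which macrophages also make. Ly6g, their defining marker, was at most 0.334. Of 6 erythroid markers 5 were at 0 throughout, and the 7 of stroma summed to between 9.10 and 17.9 RPKM. Their part in the results was not tested.

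RANKL lowered the activating receptors by between 5.28-fold and 41.9-fold. Fcgr3 was the most abundant of the 5 in -R, at 124.5 and 118.96 RPKM, and stood at 9.28 and 11.3 in +R. Fcgr1 was at 68.3 and 69.2 RPKM in -R and at 1.51 and 1.77 in +R. Its RNA thus went from the second highest level of the 5 to the lowest. Fcgr4 was at 20.5 and 20.8 RPKM in -R and at 4.35 and 3.49 in +R. For all of these, both -R libraries lay far above both +R libraries. Fcgr1 had 5181 and 6226 reads without RANKL and 120 and 140 with it, so the low values rest on over 100 reads. Since these are bulk cultures, fewer cells with a receptor and less RNA per cell cannot be told apart.

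Fcgr1 had a log2 fold change of -5.02 (SE 0.14, adjusted p = 1.01e-12, limma, with the Benjamini-Hochberg correction taken over every gene tested). This was the 8th lowest of the 11595 log2 fold changes. Fcgr3 had -3.51 (SE 0.17, adjusted p = 2.61e-10, limma), which was the 37th lowest, and Fcgr4 had -2.27 (SE 0.14, adjusted p = 5.02e-09, limma), the 187th lowest. Fold changes here are on the log2(RPKM + 0.5) scale, which understates the change of low genes such as Fcgr1 in +R.

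The other members moved less. Fcgrt was at 21.2 and 18.9 RPKM in -R and at 10.1 and 11.1 in +R, and fell by 0.88 on the log2 scale (SE 0.17, adjusted p = 0.000476, limma), which is less than 2-fold. Fcgr2b was at 5.75 and 4.85 RPKM in -R and at 4.32 and 3.66 in +R. Its libraries did not overlap, but its log2 fold change of -0.37 (95% interval from -0.76 to 0.02, adjusted p = 0.113, limma) did not pass. In all, 4 of the 5 members passed an adjusted p of 0.05 and were lower, against 21.5% of all genes tested. With a fold of at least 2 as well, it was 3 of 5 against 8.92%. The median log2 fold change was -2.27 for the members and 0.05 for all genes tested.

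**Figure D1:**
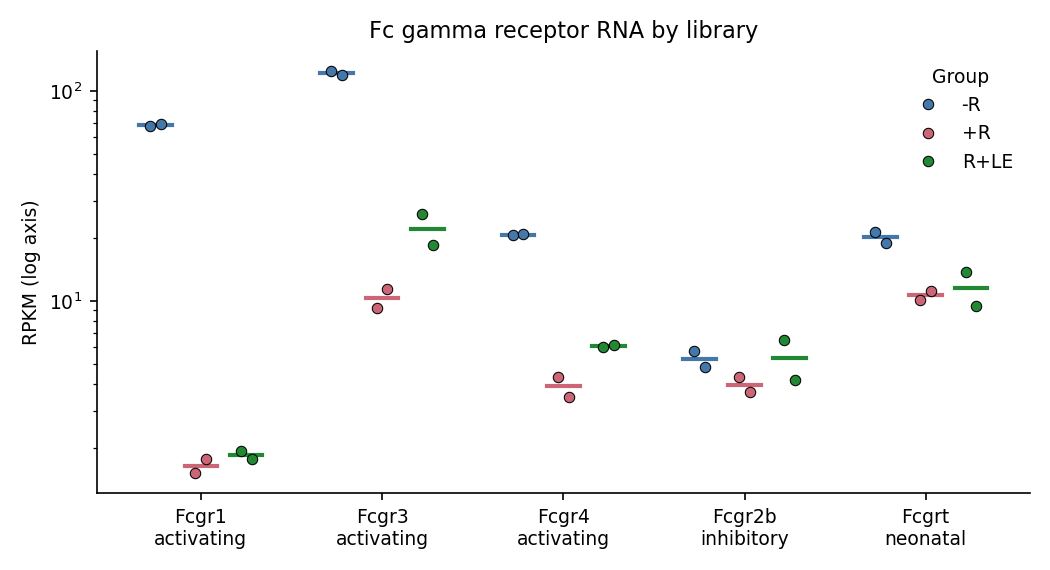
RPKM on a log axis for each receptor gene, with 1 point per library and a bar at the mean of each group of 2 (blue -R, red +R, green R+LE). Fcgr1 drops from 68.3 and 69.2 to under 2 RPKM in all RANKL-treated libraries, while the points of Fcgr2b stay between 3.66 and 6.49 RPKM.

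The value of Fcgr2b is the least certain of the 5, because its coding sequence resembles that of Fcgr3. Of 1363 windows of 100 bases, the read length of the study, in the Fcgr2b transcript of GENCODE, 44 (3.23%) also occur letter for letter in Fcgr3, and with windows of 50 bases it was 166 of 1413. Fcgr1, Fcgr4 and Fcgrt shared no such window with any gene. How reads that match both genes were counted is not given in the sources used here. The reads were paired per the study's methods, but each was taken alone for these windows. A mate outside the shared windows, which could place the pair, was thus left out of account. For Fcgr3 the longest GENCODE transcript, of 1347 bases, stood in for the deposited one of 1334. If reads lay evenly on Fcgr3, the shared windows would hold 172.1 and 194.97 of its reads in -R, but only 13.4 and 16.4 with RANKL, then 38.4 and 26.3 with LE. The reads on Fcgr2b itself were 236 in each -R library, 185 and 157 with RANKL, then 286 and 178 in R+LE. Were all those Fcgr3 reads counted on Fcgr2b as well and then taken off, its log2 fold change with RANKL would turn to 1.31 (adjusted p = 0.000191, limma). The direction of Fcgr2b with RANKL is therefore not settled by these values. This setting altered only the values of Fcgr2b, so it could not test the activating receptors. The values of Fcgr3 were not corrected for shared reads.

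LE, added to RANKL, raised 2 of the activating receptors and left all of them below their level without RANKL. Fcgr3 was at 25.8 and 18.4 RPKM in R+LE, against 9.28 and 11.3 in +R, a 2.14-fold higher mean. Fcgr4 was at 6.04 and 6.16 RPKM in R+LE against 4.35 and 3.49 in +R, 1.56-fold higher. For both genes the R+LE libraries lay above the +R libraries without overlap. Fcgr1, by contrast, was at 1.93 and 1.77 RPKM in R+LE, and its lower library almost touched the higher one of +R.

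Between +R and R+LE the fitted log2 fold change was 1.05 for Fcgr3 (SE 0.17, adjusted p = 0.000624, limma) and 0.59 for Fcgr4 (SE 0.14, adjusted p = 0.0125, limma). For Fcgr1 it was 0.14, with a 95% interval from -0.16 to 0.43 (adjusted p = 0.652, limma), so a rise as large as that of Fcgr3 lies outside this interval. The difference between the 2 genes was not itself tested. Per library, Fcgr3 was 1.82 and 1.72 times as high as Fcgr1 in -R, 6.13 and 6.41 times in +R, then 13.4 and 10.4 times in R+LE, with no overlap between groups. Fcgr2b was at 6.49 and 4.19 RPKM in R+LE and overlapped both other groups (log2 fold change against +R 0.35, 95% interval from -0.04 to 0.74, adjusted p = 0.268, limma). Fcgrt, at 13.7 and 9.42 RPKM, also overlapped +R (0.09, 95% interval from -0.26 to 0.45, adjusted p = 0.826, limma).

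Among the members, 2 of 5 passed the test and were higher with LE, against 5.19% of all genes tested. Only Fcgr3 was also past 2-fold, against 1.46%. The median was 0.35 for the members and -0.05 for all genes. Of the 7 macrophage markers Cd14 (0.62) and Mertk (0.52) rose with LE as well, against 5.19% of all genes tested, and 5 did not pass. All 8 osteoclast markers fell, against 6.86% of all genes tested. The part of these markers in the rise was not tested. Without the filter on low values the adjusted p rose to 0.0515 for Fcgr3 and 0.0792 for Fcgr4. Without +R replicate 2 Fcgr4 no longer passed (0.44, adjusted p = 0.179, limma), and without +R replicate 1 or R+LE replicate 1 Fcgr3 was under 2-fold, at 0.91 and 0.81.

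R+LE against -R showed how far the receptors stayed from the precursors. The mean level in R+LE was 2.69% of that in -R for Fcgr1, 18.2% for Fcgr3, 29.5% for Fcgr4 and 57.6% for Fcgrt. In +R the same shares were 2.39%, 8.46%, 18.9% and 53.1%. The log2 fold change was -4.88 for Fcgr1 (adjusted p = 5.69e-12, limma), the 5th lowest of all genes tested, and -2.45 for Fcgr3 (adjusted p = 2.62e-08). It was -1.68 for Fcgr4 (adjusted p = 2.48e-07, limma) and -0.79 for Fcgrt (adjusted p = 0.00168). Fcgr2b had -0.02, with a 95% interval from -0.40 to 0.37 (adjusted p = 0.961, limma). So 4 of the 5 passed and were lower, against 19% of all genes tested, and 3 of 5 were also past 2-fold, against 6.36%. The 3 comparisons share libraries in pairs, so they are not independent of one another.

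**Figure D2:**
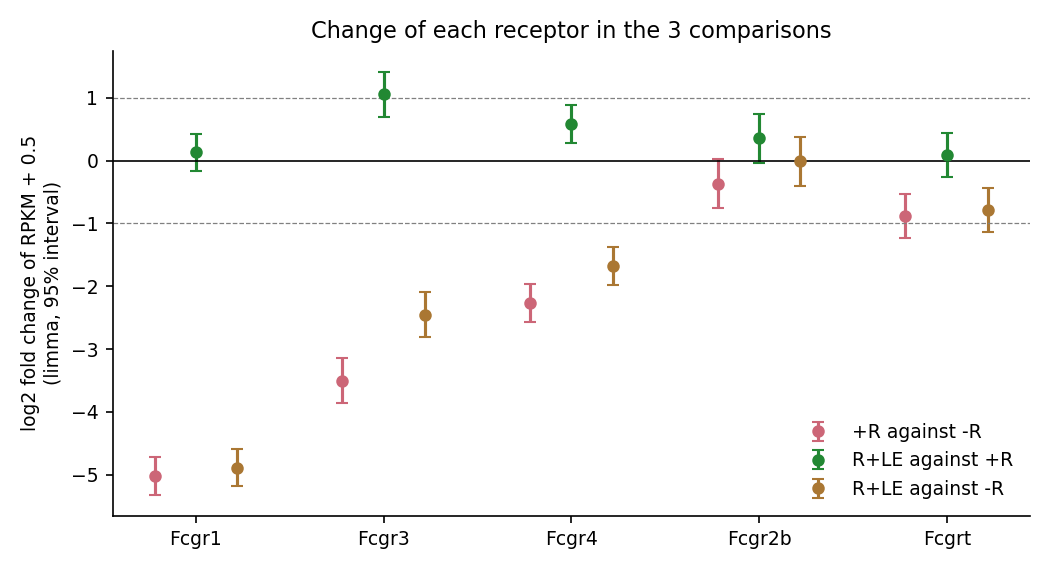
The log2 fold change of RPKM + 0.5 for each receptor in the 3 comparisons (red +R against -R, green R+LE against +R, brown R+LE against -R), with 95% intervals from limma and dashed lines at 2-fold. The intervals of Fcgr2b reach 0 in each comparison, and among the green points only those of Fcgr3 (1.05) and Fcgr4 (0.59) have intervals clear of 0.

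The order of the levels changed with the group. In -R it was Fcgr3, Fcgr1, Fcgr4, Fcgrt and Fcgr2b, and of the neighbours only Fcgr4 and Fcgrt overlapped. In +R it was Fcgrt, Fcgr3, Fcgr2b, Fcgr4 and Fcgr1, with overlap between Fcgrt and Fcgr3 and between Fcgr2b and Fcgr4. In R+LE it was Fcgr3, Fcgrt, Fcgr4, Fcgr2b and Fcgr1, with overlap between Fcgr4 and Fcgr2b.

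Set against the inhibitory receptor, the activating ones lost most of their excess. The summed RPKM of Fcgr1, Fcgr3 and Fcgr4 was 37.1 and 43.1 times that of Fcgr2b in -R, 3.51 and 4.53 times in +R, then 5.21 and 6.28 times in R+LE. The 3 groups did not overlap. No test was made of this ratio. An exact permutation test (two-sided) on groups of 2 could not give a p below 0.333. On the log2 scale the ratio changed by -3.33 from -R to +R, by 0.54 from +R to R+LE and by -2.79 from -R to R+LE. With the shared Fcgr3 reads taken off Fcgr2b, the first would be -5.01 and the last -4.39. That setting takes most reads off Fcgr2b in -R, where Fcgr3 is highest, so a deeper fall was fixed in advance.

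Each activating receptor took its own course against Fcgr2b. Fcgr1 was 11.9 and 14.3 times as high as Fcgr2b in -R and fell below it in the other 4 libraries, to 0.351 and 0.482 times in +R, then 0.297 and 0.422 times in R+LE. Fcgr3 stayed above Fcgr2b in every library, at 21.6 and 24.5 times in -R, 2.15 and 3.09 times in +R, then 3.98 and 4.39 times in R+LE. Fcgr4 went from 3.57 and 4.30 times in -R to about the level of Fcgr2b, at 1.01 and 0.951 times in +R, then 0.931 and 1.47 times in R+LE. As a share of the summed RPKM of these 4 receptors, Fcgr2b made up 2.45% ± 0.253 (SD, n = 2) in -R, 20.1% ± 2.89 (SD, n = 2) in +R and 14.9% ± 1.67 (SD, n = 2) in R+LE. Fcgr1 went from 31.8% ± 0.841 to 8.25% ± 0.671 and 5.29% ± 0.723 (SD, n = 2 each), while Fcgr3 kept the largest share in every library. With the shared Fcgr3 reads taken off Fcgr2b, its share would be 0.725% and 0.402% in -R, 20.9% and 16.5% in +R, then 14.3% and 11.95% in R+LE. In -R, Fcgr1 would then be 43.8 and 82.1 times as high as Fcgr2b, Fcgr3 79.9 and 141.05 times and Fcgr4 13.2 and 24.7 times. In +R this would put Fcgr1 at 0.378 and 0.539 times the level of Fcgr2b, still below it. The sum of the 4, as deposited, was 219.1 and 213.9 RPKM in -R and 40.3 and 30.5 RPKM in R+LE.

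**Figure D3:**
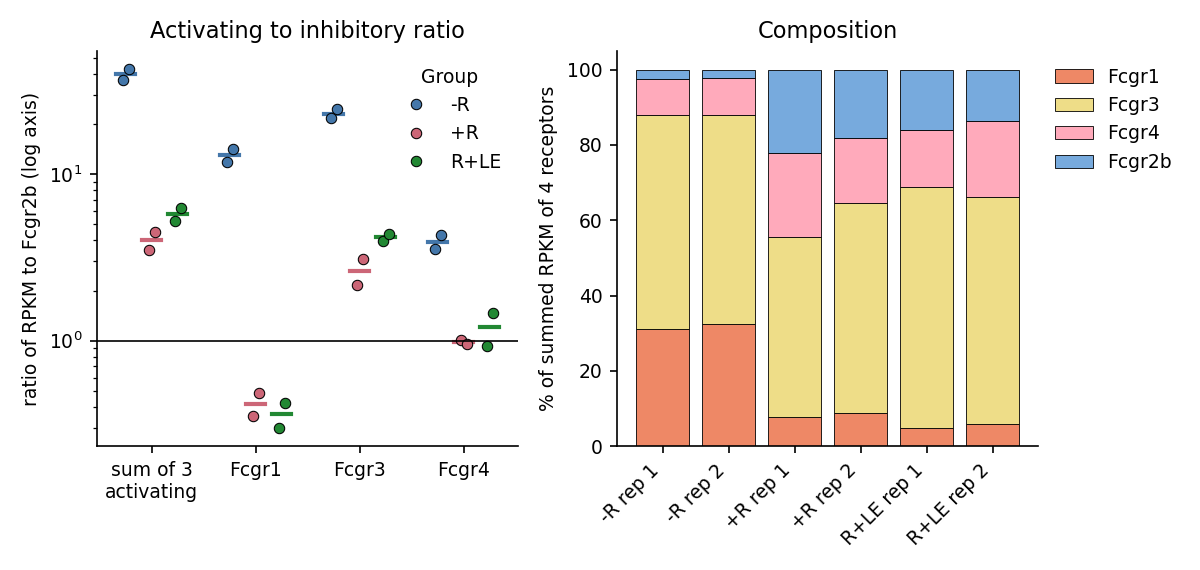
Left, the ratio of RPKM to that of Fcgr2b on a log axis for the summed activating receptors and for each of them, with 1 point per library, a bar at each group mean and a line at 1. Right, the share of each receptor in the summed RPKM of Fcgr1, Fcgr3, Fcgr4 and Fcgr2b per library, in which the blue part (Fcgr2b) grows from 2.45% on average in -R to 20.1% in +R.

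The subunits that pair with the receptors, and the other genes of their list, fell with RANKL. Fcer1g, the gamma chain, was at 278.1 and 303.5 RPKM in -R, 148.2 and 119.6 in +R, then 194.8 and 135.3 in R+LE. On the log2 scale it fell with RANKL (-1.12, adjusted p = 0.000192, limma) and had 0.29 with LE (adjusted p = 0.426), where its libraries overlapped. B2m, the light chain of FcRn, had -1.13 with RANKL and -0.13 with LE. The cytosolic antibody receptor Trim21, Ms4a4a and the receptor-like gene Fcrls fell too. All 5 of this list were thus lower in +R, against 21.5% of all genes tested, and none of them passed with LE. Ms4a4a had 202 and 268 reads without RANKL, 8 and 3 with RANKL alone, then 3 and 5 once LE was added. Only its -R libraries lay above 0.5 RPKM, so it could hardly have counted as anything but lower. Fcrls went from 100 and 148 reads to 18 and 47, then 15 and 1. At such counts a change of Ms4a4a or Fcrls with LE could hardly be seen.

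The kinases and adaptors downstream went both ways with RANKL. Of 23 tested, 9 fell, 8 rose and 6 did not pass, where 21.5% of all genes tested were lower and 23.9% higher. The median log2 fold change was -0.06. Lyn (-1.04), a Src family kinase that phosphorylates the ITAM, fell, while Fgr and Src of the same family rose by 2.53 and 4.27. The ITAM kinase Syk went from 54.6 and 50.8 RPKM in -R to 40.9 and 39.0 in +R, a log2 fold change of -0.40 (adjusted p = 0.028, limma). The adaptor Lat2 (-1.28) and the exchange factors Vav1 (-1.03) and Vav3 (-1.26) fell, whereas the adaptors Blnk (0.94) and Lcp2 (0.51) rose. With LE, 4 of the 23 fell, namely Src (-1.72), Pik3cb (-0.96), Blnk (-0.92) and Lcp2 (-0.71), and Pik3cg rose (0.50), where 6.86% of all genes tested were lower and 5.19% higher. Syk did not pass with LE (-0.33, adjusted p = 0.153, limma).

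On the inhibitory side, 4 of 10 fell with RANKL (21.5% of all genes), 2 rose (23.9% of all genes) and 4 did not pass, with a median of -0.07. Inpp5d, which encodes the phosphatase SHIP1 that Fcgr2b recruits, was at 61.9 and 65.1 RPKM in -R, 33.9 and 34.3 in +R, then 34.4 and 33.9 in R+LE. It fell with RANKL (-0.89, adjusted p = 7.61e-05, limma) and had 0.00 with LE (adjusted p = 0.993). Inppl1, which encodes SHIP2, fell by 1.41 on the log2 scale, and Ptpn6, which encodes the phosphatase SHP-1, rose by 0.89. With LE, 2 of the 10 fell, Dok1 (-0.54) and Cblb (-0.62), against 6.86% of all genes tested. Only Dok2 rose (0.46), against 5.19%.

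For the engulfment genes, 4 of 15 tested fell with RANKL and 2 rose, of which the first is near the 21.5% of all genes that were lower and the second below the 23.9% that were higher. Marcks, an actin-linked substrate of protein kinase C, had the lowest value (-2.03), and Myo10, a myosin of filopodia, and the GTPase Rac2 rose by 2.32 and 0.75. With LE, the phospholipase Pla2g4a rose (0.76), Myo10 fell (-0.70) and 13 did not pass. That is 1 of 15 each way, near the 5.19% of all genes tested that were higher and the 6.86% that were lower. Among the genes that act on the receptors from outside, 7 of 15 fell with RANKL and 3 rose, against the same 21.5% and 23.9% of all genes. Irf8, an interferon regulatory factor of monocytes, was at 66.9 and 65.2 RPKM in -R and 4.07 and 5.21 in +R. Stat2 (-2.24), Cebpa (-2.19) and the C5a receptor C5ar1 (-2.14) fell as well, while Ifngr1, a chain of the interferon gamma receptor, rose by 1.19. Spi1, which encodes PU.1, was at 207.04 and 187.1 RPKM in -R and 260.3 and 252.6 in +R, and did not pass (0.38, adjusted p = 0.0636, limma). With LE, 4 of these 15 rose, C5ar1 (1.16), Cebpb (0.69), Irf8 (0.61) and Il10ra (0.56), against 5.19% of all genes tested. Another 2 fell, against 6.86%. These were Tgfbr2 (-0.59) and Tgfbr1, from 30.3 and 27.4 RPKM in +R to 15.8 and 12.6 in R+LE (adjusted p = 0.000534, limma).

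Of 10 other Fc receptor genes, only Fcrl1 and Fcrlb passed the limit on low values. Fcrl1 was at 1.995 and 2.54 RPKM in -R, 3.86 and 2.83 in +R, then 7.53 and 6.56 in R+LE, and rose with RANKL (0.47, adjusted p = 0.0359, limma) and with LE (0.98, adjusted p = 0.00118). The IgE receptor chain Fcer1a and Fcamr had no read. Over the 6 lists, 29 of 70 genes tested were lower with RANKL and 17 were higher, against 21.5% and 23.9% of all genes. With LE, 9 were lower and 8 were higher, against 6.86% and 5.19%, and between R+LE and -R 29 were lower and 11 higher, against 19% and 15.3%.

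**Figure D4:**
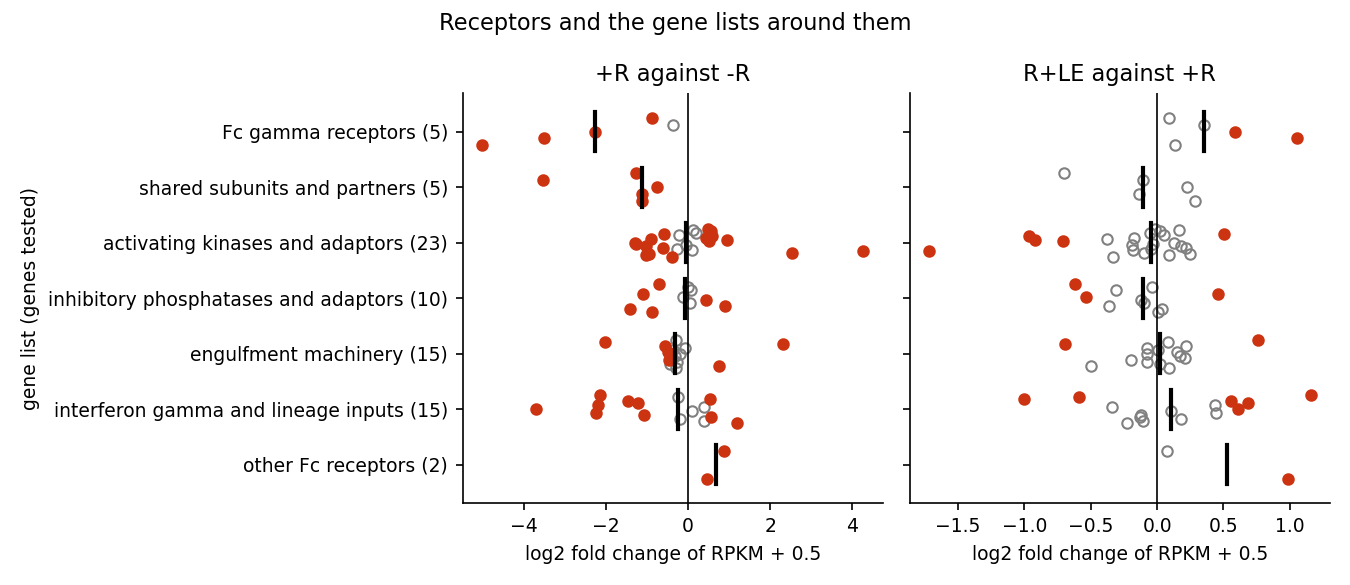
The log2 fold change of each tested gene by list, for +R against -R on the left and R+LE against +R on the right, with filled red points for an adjusted p below 0.05, open grey points for the others and a black bar at the list's median. The receptors have the lowest median on the left (-2.27), and the activating kinases spread to both sides of 0.

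The genes whose profiles over the 6 libraries were nearest to each member, by Euclidean distance of log2 values centred on their own mean, were found among all genes tested. For Fcgr3 they were C3ar1, the receptor of the complement fragment C3a (distance 0.33), Slc15a3 (0.40) and the iron exporter Slc40a1 (0.44). C3ar1 was at 231.5 and 249.7 RPKM in -R, 21.2 and 19.9 in +R, then 49.8 and 41.2 in R+LE. For Fcgr1 they were Ms4a4c (0.57), Slfn1 (0.60) and Ly6c1 (0.60), which has a close paralog in Ly6c2. Slfn1 was at 31.4 and 29.5 RPKM in -R, 0.552 and 0.776 in +R, then 0.906 and 1.15 in R+LE. For Fcgr4 they were Gm5150, the adenosine deaminase gene Ada and Rassf2 (0.20, 0.20 and 0.22), for Fcgr2b Lxn, Bpgm and Ankra2 (0.15, 0.16 and 0.17), and for Fcgrt Tmem219, Mir7676-1 and Tctex1d4 (0.09, 0.18 and 0.19). No member was among the nearest genes of another, and the closest pair of members was Fcgr2b and Fcgrt, at a distance of 0.83.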

How the data were processed

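RNA of BMMs was sequenced by the authors as 6 libraries, with paired reads per the study's methods. Reads were aligned to mm10 with TopHat per the study's methods (the submitters' processing notes list HISAT2, HOMER and DESeq2, whose use is not described). HOMER counted them on exons of either strand, with 1 transcript per gene, per the file headers. The authors deposited RPKM under titles that say FPKM. Strand was not used.

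Groups were taken from the sample labels. The 11595 genes whose mean reached 0.5 RPKM were tested as log2(RPKM + 0.5) with limma 3.58.1 in R 4.3.3, 3 group means fitted together with a variance trend and Benjamini-Hochberg adjustment. A gene passed at an adjusted p below 0.05. The thresholds are those of the study's methods. Whether replicates were separate cultures is not stated, so p-values measure the spread between these libraries. Reads were recovered from RPKM, length and depth: 99.99% of the values checked in each library were whole within 0.1 reads.

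The named genes were the 5 members, the genes of 6 pathway lists and, for each member, its 3 nearest profiles. The members and lists were chosen with earlier results of these data known. The fitting was tested on simulated data. Alternatives were other pseudocounts, filters, scalings (median, quantile, depth without Rn45s), no variance trend, only the compared groups, a replicate block, voom on recovered reads with TMM factors and each library left out. Tables were handled in Python 3.11.15 with pandas 2.3.3, and figures drawn with matplotlib 3.10.9. Protein sequences were not used here. Some genes of the lists enter the counts and are not reported here by name.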

Additional observations from a re-analysis of the deposited data

How the results depend on the processing

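The falls of Fcgr1, Fcgr3, Fcgr4 and Fcgrt with RANKL, and against -R in R+LE, kept their direction and passed under every alternative run. The calls with LE did not. With no filter, where more genes are tested, 0 members and 8 pathway genes passed and 0 members were past 2-fold, against 2, 17 and 1, and the cause was not tested. With each library left out, between 1 and 3 members passed, between 0 and 1 were past 2-fold, and between 3 and 5 pathway genes were past 2-fold with LE. Fcgrt with LE ranged from -0.17 to 0.35 in these fits, turning without R+LE replicate 1, and Fcgr2b with LE passed without R+LE replicate 2 (0.64, adjusted p = 0.0354 in limma). Fcgr2b in R+LE against -R did not pass in any of the planned fits and lay near 0: it turned to 0.0393 with median centring, 0.0226 with quantile normalization, 0.0170 with voom and 0.0542 with depth without Rn45s, and ranged from -0.30 to 0.27 with 1 library left out. Over all genes, 1397 passed with LE, against 581 with no filter. Between R+LE and -R 3974 passed, against 2455 and 2611 without -R replicate 1 and 2.

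After the data were seen, Fcgr2b was refitted less the Fcgr3 reads that could match it, with each read of a pair taken alone. Its log2 fold change turned to 1.31 against -R in +R and to 1.58 in R+LE, and the log2 ratio of activating receptors to Fcgr2b moved to -5.01 and -4.39. Depth without Rn45s was also added then.

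The replicate numbers are shared by the groups, but deviations of same-numbered libraries correlated at -0.046, 0.107 and 0.249, so they were not taken as pairs. With a replicate block, Fcgr2b passed with RANKL (-0.37, adjusted p = 0.0455 in limma), and no other call of a member changed. Depth was enough for at least 120 reads on each member in each library.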
